A study of Mus musculus with 24 samples.

Results

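AECs of Krt8-/- mice on day 3 of culture were compared with the same preparations on day 1, to describe which transcripts were gained, lost, or turned around over these days in cells without keratin 8. The comparison rests on 6 of the 24 libraries of the study, 3 from day 1 and 3 from day 3, chosen by genotype and day and paired by the date of isolation, which the labels give as the batch. Each date is labelled a separate biological replicate. All 24 libraries entered the model, so that the spread between libraries was estimated from all of them. AEC2s were isolated from lungs of Krt8-/- mice, a global knockout in which every cell lacks the gene from the start, or of Krt8+/+ mice, and were sequenced fresh (day 0) or after 1, 3, or 7 days of 2D culture. Per the study, the 2D cultures stood on a stiff surface coated with laminin, which differs from the soft matrix of the alveolus. The age, strain, and number of mice per isolation were not given in the sources used here.

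AEC2s are the cuboidal cells of the alveolus that make surfactant and serve as its progenitors. After injury, or when plated on a stiff surface, they leave the AEC2 state, pass through a transitional state rich in simple keratins, and acquire features of the flat AEC1s that carry out gas exchange. Keratin 8 pairs with keratin 18 to form the intermediate filaments of simple epithelia, and both rise in the transitional state.

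The libraries held 10979481, 12838685, and 12418970 counted reads on day 1 and 12752690, 14818056, and 12205444 on day 3, in the order of isolations 1, 2, and 3, which is kept for every set of 3 values. Levels are given in CPM, the read count of a gene scaled to library size, here with TMM factors. The day 1 library of isolation 2 stood apart. On the first principal component of the 6 libraries, which held 57.9% of the variance, it scored -38.7, whereas the other day 1 libraries scored -84.8 and -80.9 and the day 3 libraries 63.3 to 75.7. Its 10 most abundant genes took 7.11% of the reads, against 14.0% and 12.7% in the other day 1 libraries. The Krt8+/+ day 1 library of the same date had 7.95%, against 14.1% and 13.7%. Isolation 2 also differed in sex-linked transcripts, with Xist at 100.4 CPM on day 1 and 51.2 on day 3 and Ddx3y at 0.130 and 0.181 CPM. In the other isolations Ddx3y was at 58.1 to 83.1 CPM. Xist was there at 5.92 and 6.03 CPM in isolation 1 and 0.389 and 0 CPM in isolation 3. The labels give no sex, and a difference of sex cannot be told apart from other differences of isolation 2. Results that rest on this isolation are given with and without it.

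Krt8 (ENSMUSG00000049382, chromosome 15, 101996698 to 102004482 of GRCm38) was counted at 47.4, 28.5, and 38.6 CPM on day 1 and 29.9, 28.7, and 32.2 CPM on day 3 in Krt8-/- AECs, and at 3160.2, 3394, and 3071 CPM on day 1 and 2599, 3866, and 3344 CPM on day 3 in Krt8+/+ AECs. The knockout libraries were thus far below the wild-type ones in each isolation. The remaining level did not pass the test between days (log2 change -0.32, SE 0.20, adjusted p = 0.259). Epithelial markers were present on both days: Epcam, a pan-epithelial adhesion molecule, was at 385, 358, and 402 CPM on day 1 and 384, 392, and 425 CPM on day 3, and Cdh1, which encodes E-cadherin, at 985, 716, and 751 CPM on day 1 and 1156, 1112, and 1104 CPM on day 3. Neither passed the test (adjusted p = 0.875 and 0.176).

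From day 1 to day 3, 2490 of 18046 genes tested rose and 1932 fell in Krt8-/- AECs at an adjusted p below 0.05 (edgeR's quasi-likelihood test with Benjamini-Hochberg adjustment), which is 13.8% and 10.7% of the genes tested. Those shares are the background against which every list is read. Of these, 1217 rose and 1216 fell at least 2-fold. In 4368 of the 4422 genes the direction was the same in each of the 3 isolations, and in 4156 the day 1 and day 3 libraries did not overlap. These genes were chosen by a test on the same libraries, so both counts largely follow from that choice and are no separate support. Neither was counted over all genes tested. Leaving out isolation 1, 2, or 3 gave 1261, 1448, and 1341 genes that rose and 575, 1415, and 675 that fell, and leaving out only the day 1 library of isolation 2 gave 1927 and 1881. No gene called in the full fit was called in the opposite direction in any of these. The gene lists that follow are set out by their median change in the plot of lists by isolation.

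**Figure D1:**
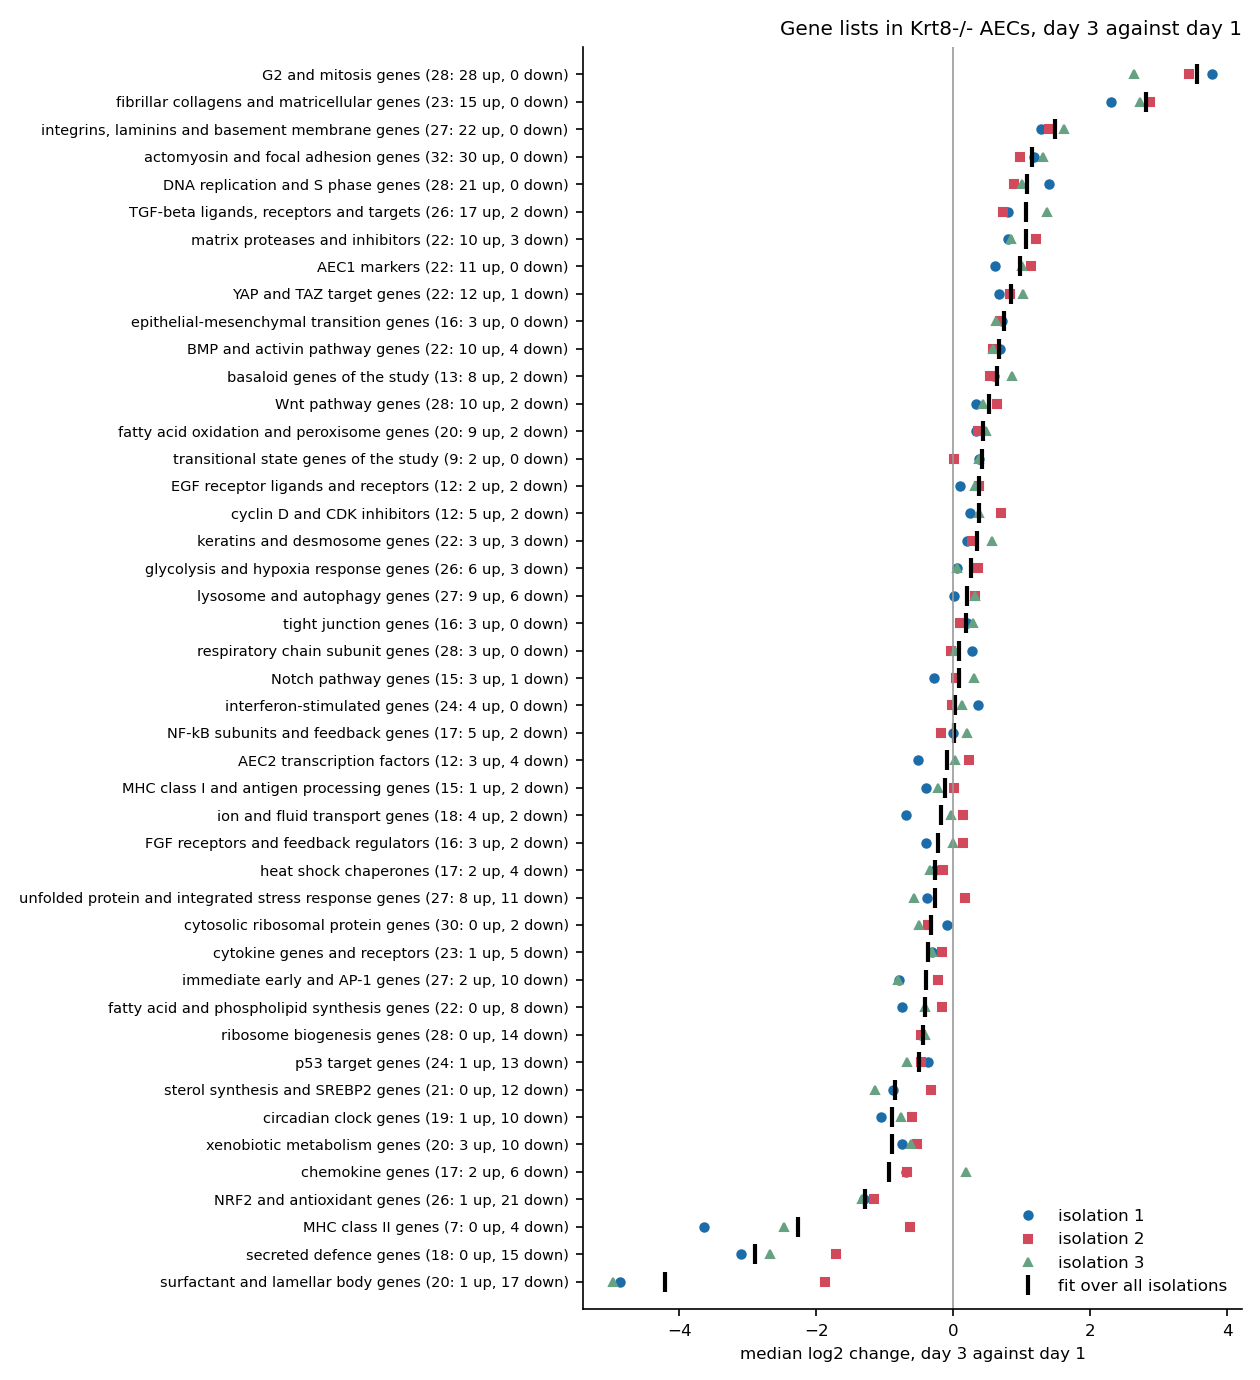
Median log2 change from day 1 to day 3 in Krt8-/- AECs by gene list, with AEC1 markers shown and other cell type markers left out. Each list has 1 point per isolation (CPM of day 3 over day 1, each with 0.5 added) and a bar for the fit over all isolations, which does not use these ratios. The brackets give the genes tested and how many passed an adjusted p of 0.05 in each direction. G2 and mitosis genes lie at the top with a median of 3.56 and surfactant and lamellar body genes at the bottom with -4.20, where isolation 2 is nearer to 0 than the others.

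Genes that mark the AEC2 state fell. Surfactant and lamellar body genes had the lowest median of the lists. These genes, which encode the surfactant proteins and the machinery that packs surfactant lipid, fell in 17 of 20 cases and rose in 1, with a median log2 change of -4.20, beside -0.03 over all genes tested. The list also holds AEC2 defense genes, Lyz1, Lyz2, Hc, Chil1, and Cxcl15, all of which fell. Sftpc, which encodes surfactant protein C (ENSMUSG00000022097, chromosome 14, 70520949 to 70524081), was at 171167, 168664, and 220906 CPM on day 0, 64348, 11436, and 48249 on day 1, and 236, 205, and 378 on day 3 (log2 change -7.12, SE 0.58, adjusted p = 8.85e-07). The days did not overlap, and isolation 2 had already lost more of the transcript by day 1 than the others. Sftpa1, which encodes surfactant protein A, fell from 14034, 2006, and 10921 CPM on day 1 to 23.5, 11.6, and 42.6 CPM on day 3 (log2 change -8.34, SE 0.77, adjusted p = 3.88e-06). Sfta2, a surfactant-associated secreted protein, fell from 36, 9.6, and 37.2 CPM on day 1 to 0.617, 0.482, and 0.423 CPM on day 3 (log2 change -5.60, SE 0.52, adjusted p = 3.1e-06). Abca3, the lamellar body lipid transporter, was at 519, 89.7, and 212 CPM on day 1 and 117, 120.0, and 134 CPM on day 3 (adjusted p = 0.216). Lpcat1, which remodels surfactant phosphatidylcholine, was at 749, 108, and 379 CPM on day 1 and 127, 145, and 172 CPM on day 3 (adjusted p = 0.0853). In both, isolation 2 was no higher on day 1 than on day 3, and both passed the threshold when isolation 2 was left out. Ctsh, a lysosomal protease that processes surfactant protein B and C precursors, was the member that rose (log2 change 0.46, SE 0.17, adjusted p = 0.0494), and it lost the call when any isolation was left out. The median over the list was -4.87, -1.87, and -4.96 in the 3 isolations, and 18 genes fell without isolation 2, against 10 without isolation 1 and 10 without isolation 3. In the fit of only the libraries compared, 9 fell, with a median of -4.03. In bulk RNA, fewer cells of a type and less RNA per cell cannot be told apart.

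**Figure D2:**
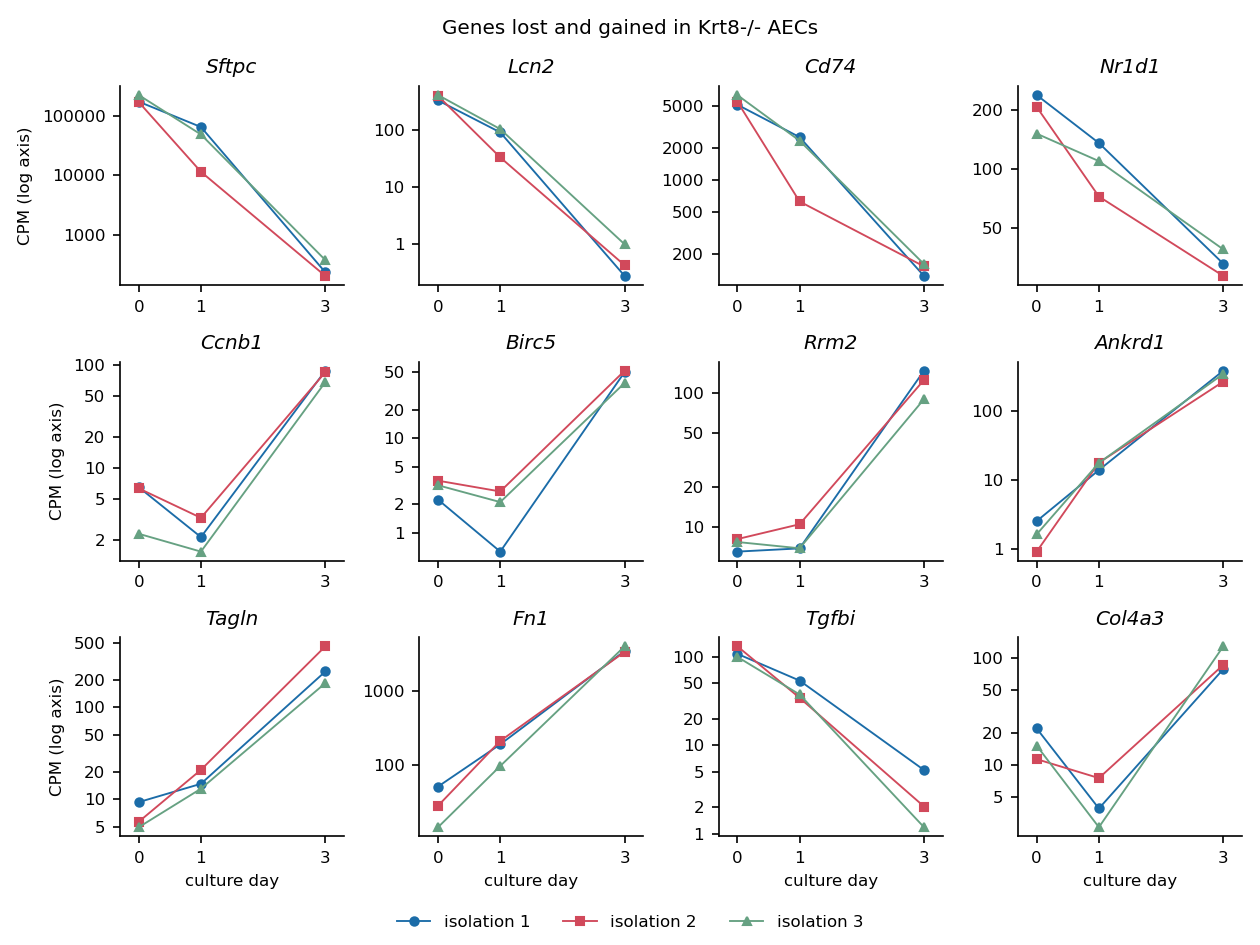
CPM (log axis) of 12 genes by culture day (days 0, 1, and 3) in Krt8-/- AECs, with 1 line per isolation. Sftpc, Lcn2, Cd74, Nr1d1, and Tgfbi were lower on day 3 than on day 1 in every isolation, and the other 7 genes were higher; Sftpc ended between 205 and 378 CPM and Ccnb1 between 68.2 and 88 CPM.

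The transcription factors of AEC2s divided. Of 12 factors, 3 rose and 4 fell, and 1, 4, and 2 fell without isolation 1, 2, or 3. Nkx2-1, the lineage factor of the lung epithelium, went from 62.2, 92.3, and 88.2 CPM on day 1 to 134, 139, and 179 CPM on day 3, after 528, 522, and 591 CPM on day 0 (log2 change 0.90, SE 0.14, adjusted p = 0.000243). It regained part of what it had lost by day 1, in each isolation. Foxa2 and Gata6, which act with it on surfactant genes, rose by log2 0.75 (adjusted p = 0.00892) and 0.70 (adjusted p = 0.00982). Foxa2 lost its call without isolation 1 or 3 and Gata6 without isolation 2 or 3. By contrast, Etv5, a factor downstream of FGF signaling that maintains AEC2s, fell from 172, 24.6, and 87.2 CPM on day 1 to 14, 18.1, and 18.7 CPM on day 3 (log2 change -2.32, SE 0.63, adjusted p = 0.0134). Cebpa, which promotes surfactant gene expression, fell from 22.1, 19.7, and 33.9 CPM on day 1 to 4.59, 6.63, and 4.3 CPM on day 3 (log2 change -2.24, SE 0.39, adjusted p = 0.00061). Klf5, a factor tied to AEC fate, rose to 477, 257, and 599 CPM on day 1 and returned to 157, 183, and 180.0 CPM on day 3, beside 174, 159, and 152 CPM on day 0 (log2 change -1.33, SE 0.27, adjusted p = 0.00202). Elf5, an epithelial factor, summed to 48 counts over the day 1 libraries and to 1 over those of day 3, a CPM ratio of 55.2 (95% interval of the counts 9.45 to 2227). Etv5 and Elf5 lost their calls without isolation 1 or 3, and Klf5 without isolation 1.

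Host defense genes fell. Secreted defense genes fell in 15 of 18 cases and none rose (median -2.89; 9 to 12 fell when 1 isolation was left out, fewest without isolation 1). Lyz1, Lyz2, Sftpa1, and Sftpd stand in this list and in that of surfactant genes. Of the 14 defense genes outside the surfactant list, 11 fell (median -2.55). Lcn2, an antibacterial siderophore-binding protein, fell from 91.3, 33.2, and 104 CPM on day 1 to 0.274, 0.422, and 0.986 CPM on day 3 (log2 change -7.14, SE 0.81, adjusted p = 2.04e-05). Cxcl15, the lung-restricted neutrophil chemokine lungkine and a member of the surfactant and chemokine lists, fell from 1234, 123, and 653 CPM on day 1 to 3.63, 4.82, and 3.31 CPM on day 3 (log2 change -7.16, SE 0.82, adjusted p = 2.15e-05). Scgb1a1, the secretoglobin of club cells, fell from 7946, 11335, and 7185 CPM on day 1 to 866, 1127, and 905 CPM on day 3 (log2 change -3.18, SE 0.31, adjusted p = 4.46e-06), although it had not passed the test between days 0 and 1. Wfdc2, an antiprotease, was at 796, 975, and 889 CPM on day 1 and 412, 646, and 445 CPM on day 3 (adjusted p = 0.111). AEC2s are unusual epithelial cells in presenting antigen on MHC class II, and 4 of 7 class II genes fell. H2-Aa, an alpha chain, fell from 196, 33.9, and 172 CPM on day 1 to 1.92, 3.56, and 2.82 CPM on day 3 (log2 change -5.43, SE 0.64, adjusted p = 2.94e-05). Cd74, the invariant chain, fell from 2526, 626, and 2337 CPM on day 1 to 124, 153, and 161 CPM on day 3 (log2 change -3.61, SE 0.50, adjusted p = 0.000104). Day 1 of isolation 2 was again the lowest of its group, and 5 class II genes fell when that isolation was left out. Of the MHC class I and antigen processing genes, 1 rose (6.67%) and 2 fell (13.3%) of 15, beside 13.8% and 10.7% of all genes tested.

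Genes for cell division had the highest median of the lists. All 28 of 28 G2 and mitosis genes tested rose, each at least 2-fold, with a median log2 change of 3.56 (3.78, 3.45, and 2.65 in the 3 isolations). All 28 kept the call when isolation 1, 2, or 3 was left out. Between days 0 and 1, 3 of them had risen and 4 had fallen, when 24.6% of all genes rose and 27.3% fell. Ccnb1 (ENSMUSG00000041431, chromosome 13, 100778650 to 100786570), the cyclin that drives entry into mitosis, was at 6.55, 6.38, and 2.32 CPM on day 0, 2.15, 3.31, and 1.56 CPM on day 1, and 88, 85.1, and 68.2 CPM on day 3 (log2 change 5.08, SE 0.46, adjusted p = 2.74e-06). Birc5, which encodes the chromosomal passenger survivin, was at 2.23, 3.54, and 3.17 CPM on day 0, 0.628, 2.72, and 2.1 CPM on day 1, and 50.2, 51.9, and 38.5 CPM on day 3 (log2 change 4.67, SE 0.45, adjusted p = 3.88e-06). Ccna2, the cyclin of S phase and G2, rose from 2.24, 4.02, and 4.98 CPM on day 1 to 69.2, 71, and 49.8 CPM on day 3 (log2 change 4.10, SE 0.37, adjusted p = 2.37e-06). In each of these, no isolation passed 5 CPM on day 1 and the days were far apart.

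Promoters of mitotic genes are known for CCAAT boxes and for the cell cycle homology region, through which they are held silent in resting cells. These letters were counted in RefSeq promoter windows (GRCm38.p6, 250 bases before to 50 bases after each start, first window of a gene), on both strands. Of the 28 genes, 23 matched a window by symbol. CCAAT stood in 19 of these (82.6%), beside 37.9% of all 27025 promoters and 38.2% of those of the genes tested. It was not particular to them. CCAAT also stood in 80.8% of the windows of unfolded protein and integrated stress response genes and in 60.9% of those of S phase genes. In the other lists searched the share was 21.4% to 45.5%. TTTGAA or TTCGAA, the letters of the cell cycle homology region, stood in 18 (78.3%), beside 19.4% and 13.9%. Both stood together in 17 windows (73.9%), beside 7.70% of all and 5.70% of those of the genes tested. Among all genes that rose and had a window, the shares were 40.9% for CCAAT and 16.6% for the other. The windows of Top2a, Ube2c, and Cdca8 are printed because they hold both sets of letters, and these genes were chosen after their values were seen. Top2a, the topoisomerase that untangles chromosomes, rose from 4.48, 5.77, and 7.78 CPM on day 1 to 87.1, 82.1, and 67.2 CPM on day 3. Ube2c, the ubiquitin-conjugating enzyme of the anaphase-promoting complex, rose from 1.97, 3.57, and 2.41 CPM on day 1 to 51.4, 60.6, and 41.9 CPM on day 3. Cdca8, the passenger protein borealin, rose from 3.77, 7.33, and 4.83 CPM on day 1 to 39.1, 35.6, and 33.9 CPM on day 3. The windows lie at chr11:99024140-99024439, minus strand, chr2:164769679-164769978, plus strand, and chr4:124936868-124937167, minus strand, and are written 5′ to 3′ on the strand of the gene. Capitals mark CCAAT and TTTGAA or TTCGAA, read on either strand.
Top2a: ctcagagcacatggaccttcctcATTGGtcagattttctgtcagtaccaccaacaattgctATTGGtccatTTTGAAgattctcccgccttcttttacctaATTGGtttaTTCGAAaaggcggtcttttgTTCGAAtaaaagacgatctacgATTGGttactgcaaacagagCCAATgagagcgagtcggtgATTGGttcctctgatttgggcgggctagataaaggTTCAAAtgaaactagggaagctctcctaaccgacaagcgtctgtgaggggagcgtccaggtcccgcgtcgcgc
Ube2c: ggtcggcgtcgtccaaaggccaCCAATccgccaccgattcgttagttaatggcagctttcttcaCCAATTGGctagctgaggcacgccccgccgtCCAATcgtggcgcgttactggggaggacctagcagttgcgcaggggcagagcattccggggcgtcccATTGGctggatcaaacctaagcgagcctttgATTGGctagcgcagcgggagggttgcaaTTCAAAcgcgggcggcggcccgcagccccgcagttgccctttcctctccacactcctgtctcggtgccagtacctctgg
Cdca8: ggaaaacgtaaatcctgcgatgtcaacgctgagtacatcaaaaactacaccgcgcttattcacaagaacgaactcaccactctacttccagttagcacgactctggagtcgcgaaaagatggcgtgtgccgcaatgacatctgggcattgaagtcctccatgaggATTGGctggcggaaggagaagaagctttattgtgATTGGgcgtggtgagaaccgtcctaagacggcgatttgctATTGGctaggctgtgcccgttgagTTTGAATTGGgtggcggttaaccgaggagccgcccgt
The window of Top2a held 10 matches, that of Ube2c 7, and that of Cdca8 5. A match describes the letters of the window and shows no binding.

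Genes for DNA replication rose by less. Of 28 S phase genes, 21 rose and none fell (median 1.09), and 8 rose without isolation 1, against 19 without isolation 2. Rrm2, the regulated subunit of ribonucleotide reductase, rose from 7.00, 10.6, and 7.01 CPM on day 1 to 146, 125, and 89.8 CPM on day 3 (log2 change 3.86, SE 0.40, adjusted p = 7.89e-06), and its partner Rrm1 rose from 34.6, 50.3, and 45.2 CPM on day 1 to 175, 194, and 161 CPM on day 3 (log2 change 2.04, SE 0.17, adjusted p = 8.85e-07). E2f1, the transcription factor of the G1/S transition, rose from 3.68, 4.41, and 2.1 CPM on day 1 to 17.4, 19.8, and 13.7 CPM on day 3 (log2 change 2.32, SE 0.30, adjusted p = 5.13e-05). Pcna, the sliding clamp of DNA polymerase, had risen by day 1 and was at 94.5, 97.2, and 102 CPM on day 1 and 96.7, 108, and 78.4 CPM on day 3 (adjusted p = 0.85). TTTCGCGC or TTTGGCGC, letters of an E2F site, stood in 7 of the 23 S phase genes with a window (30.4%), beside 0.833% of all promoters, 1.48% of those of the genes tested, and 4.35% of the G2 and mitosis windows. Among cyclin D genes and CDK inhibitors, 5 rose and 2 fell of 12. Ccnd3, a G1 cyclin, rose from 48.5, 68, and 55 CPM on day 1 to 117, 116, and 109 CPM on day 3, after 144, 141, and 160.2 on day 0 (log2 change 1.00, SE 0.13, adjusted p = 6.38e-05). Cdkn2b, which encodes the inhibitor p15, rose from 37, 36.4, and 36 CPM on day 1 to 63.8, 56.9, and 69.9 CPM on day 3 (log2 change 0.80, SE 0.20, adjusted p = 0.00715), a call lost without isolation 1. Without isolation 1, 1 of the list rose.

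Contractile and adhesion genes rose together. Of 32 actomyosin and focal adhesion genes, 30 rose and none fell, with a median log2 change of 1.16 and 23 to 25 risen when 1 isolation was left out. Tagln, the actin-binding protein transgelin, rose from 14.7, 20.9, and 13 CPM on day 1 to 247, 464, and 184 CPM on day 3 (log2 change 4.15, SE 0.35, adjusted p = 1.31e-06). Cald1, which encodes caldesmon, a regulator of actomyosin, rose from 61.8, 92.5, and 72.2 CPM on day 1 to 258, 338, and 231 CPM on day 3 (log2 change 1.86, SE 0.18, adjusted p = 3.88e-06). Cnn2, a calponin, rose from 339, 466, and 380.0 CPM on day 1 to 799, 941, and 896 CPM on day 3 (log2 change 1.16, SE 0.11, adjusted p = 2.63e-06). The members that did not pass the test were Csrp1 and Vcl. Vcl, the focal adhesion protein vinculin, was at 339, 317, and 310.0 CPM on day 1 and 444, 502, and 457 CPM on day 3 (adjusted p = 0.0721). Acta2, smooth muscle actin, which is outside the naming rule and is given for its size, rose from 9.6, 16.4, and 9.96 CPM on day 1 to 266, 482, and 159 CPM on day 3 (log2 change 4.59, adjusted p = 1.07e-05). YAP and TAZ are transcriptional coactivators that respond to tension and spreading. Of 22 of their targets, 12 rose and 1 fell (median 0.85). Ankrd1, a nuclear ankyrin repeat protein, was at 2.52, 0.911, and 1.62 CPM on day 0, 13.8, 17.6, and 17.5 CPM on day 1, and 379, 264, and 341 CPM on day 3 (log2 change 4.31, SE 0.35, adjusted p = 8.85e-07). Ccn2, the matricellular connective tissue growth factor, was at 30.1, 17.7, and 6.8 CPM on day 0, 175, 236, and 133 CPM on day 1, and 1629.7, 1615, and 1686 CPM on day 3 (log2 change 3.23, SE 0.41, adjusted p = 4.8e-05). Both genes rose in both steps and in each isolation. Ptpn14, a listed target that encodes a phosphatase restraining YAP, was the one that fell, from 10.7, 10.4, and 2.55 CPM on day 0 to 201, 154, and 207 on day 1 and 59.2, 63.8, and 72.7 on day 3 (log2 change -1.52, SE 0.33, adjusted p = 0.00329), a call lost without isolation 1.

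Genes of TGF-β signaling rose in 17 of 26 cases and fell in 2 (median 1.07), with 10, 12, and 9 risen without isolation 1, 2, or 3. Itgb6, the β6 subunit of the integrin that activates latent TGF-β, rose from 154, 194, and 138 CPM on day 1 to 656, 609, and 676 CPM on day 3, after 21.7, 25.9, and 12.6 on day 0 (log2 change 2.04, SE 0.18, adjusted p = 1.55e-06). Inhba, which encodes the activin A subunit, rose from 116, 148, and 50.4 CPM on day 1 to 517, 566, and 369 CPM on day 3 from under 1 CPM on day 0 (log2 change 2.26, SE 0.28, adjusted p = 3.47e-05). Fstl3, a secreted activin inhibitor, rose from 32.1, 37, and 35.3 CPM on day 1 to 96.3, 95.9, and 103 CPM on day 3 (log2 change 1.5, SE 0.18, adjusted p = 3.15e-05). Tgfbi, a secreted matrix protein named for its induction by TGF-β, fell from 53.8, 34.4, and 37.5 CPM on day 1 to 5.28, 2.05, and 1.2 CPM on day 3 (log2 change -3.99, SE 0.49, adjusted p = 3.7e-05). Bambi, a pseudoreceptor that dampens TGF-β signals, fell by 1.60 on the log2 scale (adjusted p = 0.0167), a call lost without isolation 1 or 3.

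Matrix genes rose as well. Of 23 fibrillar collagen and matricellular genes, 15 rose, each at least 2-fold, and none fell (median 2.81). Without isolation 1, 2, or 3, 14, 9, and 16 rose. Fn1, fibronectin, was at 51.8, 28.7, and 14.8 CPM on day 0, 191, 212, and 97.9 CPM on day 1, and 3421, 3327, and 3953 CPM on day 3 (log2 change 4.54, SE 0.61, adjusted p = 8.66e-05). Fbln2, the matrix protein fibulin 2, rose from 94.9, 105, and 66 CPM on day 1 to 696, 668, and 498 CPM on day 3 (log2 change 2.81, SE 0.37, adjusted p = 6.97e-05). Sparc, a collagen-binding matricellular protein, fell by day 1 and rose from 247, 244, and 253 CPM on day 1 to 856, 1237, and 912 CPM on day 3 (log2 change 2.00, SE 0.20, adjusted p = 4.15e-06). Col1a1, a chain of type I collagen, was at 70.2, 49, and 25.6 CPM on day 0, 21.8, 17.2, and 12.9 CPM on day 1, and 362, 540.3, and 231 CPM on day 3 (log2 change 4.45, SE 0.61, adjusted p = 9.55e-05). Col1a2, its partner, was at 82.2, 75.8, and 38.1 CPM on day 0, 20.5, 13.6, and 9.11 CPM on day 1, and 337, 440.4, and 234 CPM on day 3 (log2 change 4.56, SE 0.67, adjusted p = 0.000165). The type I collagen genes were lowest on day 1 in every isolation. Fibroblast markers moved in both directions beside them: of 13 markers 4 rose and 4 fell, and their summed level went from 271, 250.3, and 114 CPM to 985, 1311, and 636 CPM. Those that rose were Col1a1, Col1a2, Col3a1, and Pdgfrb. Pdgfrb, which is outside the matrix list, rose from 5.02, 4.47, and 3.11 CPM on day 1 to 36.5, 33, and 23 CPM on day 3 (log2 change 2.88, adjusted p = 0.00277). The 3 collagens are also members of the matrix list, and without them the sum of the other 10 went from 199.9, 203, and 86.1 CPM on day 1 to 159, 135, and 82.8 CPM on day 3, lower in each isolation. The lineage markers Pdgfra, at 50.2, 63.9, and 25.4 CPM on day 1 and 43.1, 43, and 23.2 CPM on day 3, and Dcn, at 48.9, 59.5, and 36.3 CPM on day 1 and 71.8, 49.3, and 30.2 CPM on day 3, did not pass the test, and Inmt, a methyltransferase of alveolar fibroblasts, fell from 44.5, 24.6, and 4.67 CPM on day 1 to 0.137, 0.241, and 0.141 CPM on day 3. Dpt, Pi16, and Mfap4 fell too, and no marker was at 0 in all 6 libraries. The part of fibroblasts in the rise of matrix and contractile genes was not tested.

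The genes of the basement membrane and its receptors rose too. Of 27 integrin, laminin, and basement membrane genes, 22 rose and none fell (median 1.49; 18 to 20 rose when 1 isolation was left out). Lamb3, the β chain of laminin 332, rose from 301, 287, and 298 CPM on day 1 to 769, 736, and 911 CPM on day 3 (log2 change 1.45, SE 0.19, adjusted p = 6.15e-05). Itgb3, the β3 integrin subunit, rose from 18.9, 12.1, and 9.96 CPM on day 1 to 71.1, 46.5, and 71.1 CPM on day 3 (log2 change 2.25, SE 0.28, adjusted p = 3.3e-05). Among matrix proteases and their inhibitors, 10 rose (45.5%) and 3 fell (13.6%) of 22, beside 13.8% and 10.7% of all genes tested. The number that fell was 0, 2, and 1 without isolation 1, 2, or 3. Mmp14, a membrane-bound collagenase, rose from 48.7, 68.1, and 31.5 CPM on day 1 to 280.4, 369, and 286 CPM on day 3 (log2 change 2.68, SE 0.31, adjusted p = 1.77e-05). Mmp11, or stromelysin 3, rose from 15.9, 21.2, and 16.1 CPM on day 1 to 76.5, 72.1, and 96.5 CPM on day 3 (log2 change 2.21, SE 0.18, adjusted p = 8.85e-07). Mmp3, or stromelysin 1, had risen to 110.0, 92.7, and 27.7 CPM by day 1 and was at 40.7, 16.3, and 9.15 on day 3 (log2 change -1.87, SE 0.59, adjusted p = 0.0297). The days overlapped for Mmp3, and the call was lost without isolation 1 or 2 and in DESeq2. Mmp15, a membrane-bound protease that was high on day 0, fell from 84.9, 65.7, and 99.3 CPM on day 1 to 38.8, 47.7, and 35.4 CPM on day 3, a call lost without isolation 1 or 3.

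AEC1 markers rose in 11 of 22 cases and none fell (median 0.98, or 0.61, 1.14, and 1.01 in isolations 1, 2, and 3; 9 to 13 rose when 1 isolation was left out). By day 1, 9 of them had fallen and 10 had risen. Col4a3, the α3 chain of type IV collagen, was at 21.9, 11.2, and 15.1 CPM on day 0, 3.86, 7.46, and 2.57 CPM on day 1, and 79.2, 86.9, and 129.8 CPM on day 3 (log2 change 4.45, SE 0.46, adjusted p = 9.36e-06). Col4a4, its partner chain, was at 29.3, 21.7, and 29.3 CPM on day 0, 3.32, 4.93, and 4.05 CPM on day 1, and 42.6, 63.2, and 61.3 CPM on day 3 (log2 change 3.75, SE 0.28, adjusted p = 6.52e-07). Both ended above their day 0 level in each isolation. Emp2, an AEC1 membrane protein, rose from 556, 626, and 557 CPM on day 1 to 1458, 1806, and 1986 CPM on day 3 (log2 change 1.59, SE 0.17, adjusted p = 8.8e-06). Other well-known AEC1 markers did not pass the test. Ager, the RAGE receptor, was at 555, 173, and 465 CPM on day 1 and 560.2, 921, and 975 CPM on day 3 (adjusted p = 0.0741). Aqp5, a water channel, was at 355, 339.8, and 404 CPM on day 1 and 289, 473, and 420.0 CPM on day 3 (adjusted p = 0.769). Ager passed without isolation 1 and in DESeq2, and the day 1 level of isolation 2 was the lowest. Cldn18, the tight junction claudin of the alveolus, fell by day 1 and rose from 412, 348, and 360.2 CPM on day 1 to 888, 1108, and 1202 CPM on day 3 (log2 change 1.51, SE 0.17, adjusted p = 1.22e-05).

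Genes of the transitional state had mostly moved earlier. Of the study's 9 transitional genes, 8 rose between days 0 and 1, 2 rose further by day 3, and none fell. A list of 14 basaloid genes named by the study, of the stressed transitional cells seen in fibrosis, is shorter than its full signature. These genes rose in 8 and fell in 2 of 13 cases, with 3, 5, and 4 risen without isolation 1, 2, or 3. The study itself followed both lists in these cultures, so neither count is independent evidence of a direction. Among keratins and desmosome genes, 3 rose and 3 fell of 22, or 13.6% each, near the background of 13.8% and 10.7%. Without isolation 1, 2, or 3, 0, 2, and 1 fell, and 7 rose in the fit of only the libraries compared. Krt18, the partner of the missing keratin, was at 437, 445, and 433 CPM on day 0, 1464, 1369.9, and 1314 on day 1, and 1911, 1564, and 2041 on day 3 (day 3 against day 1, adjusted p = 0.173), and Krt19 was at 1602, 1958, and 1709 CPM on day 1 and 1825, 1811, and 1815 CPM on day 3 (adjusted p = 0.844). Krt7, another simple keratin, rose from 1413, 2096, and 1787 CPM on day 1 to 2908, 3039.8, and 3473 CPM on day 3 (log2 change 0.85, SE 0.20, adjusted p = 0.00633). Krt80, an epithelial keratin, had risen by log2 3.36 by day 1 and fell from 197, 179.8, and 248 CPM on day 1 to 104, 111, and 105 CPM on day 3 (log2 change -0.99, SE 0.23, adjusted p = 0.00463). Pkp1, a desmosomal plaque protein, rose from 0.179, 2.2, and 1.01 CPM on day 1 to 23.7, 32, and 22.3 CPM on day 3 (log2 change 4.51, SE 0.51, adjusted p = 3.15e-05). Krt7 lost its call without isolation 1 and Krt80 without isolation 1 or 3. Of 16 EMT genes, 3 rose and none fell, among them Fn1 and Cdh2, the gene for N-cadherin, which had no count on day 0 and went from 1.97, 1.75, and 1.87 CPM on day 1 to 26.3, 21.4, and 14.9 CPM on day 3 (log2 change 3.51, SE 0.48, adjusted p = 0.000149). The third was Cdh3, which encodes P-cadherin. These 3 are 18.8% of the EMT genes, beside 13.8% of all genes tested that rose. In the fit of only the libraries compared, 9 EMT genes rose and 1 fell, and 12 of the 16 were higher on day 3 in each isolation.

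A set of genes turned around. Opposite changes from day 0 to day 1 and from day 1 to day 3, each past 0.05 and at least 2-fold, were found in 654 genes, which is 3.62% of those tested: 387 rose and then fell, and 267 fell and then rose. Both steps use the day 1 libraries, so a high or low value on day 1 enters both, and the count is a description. By comparison, 274 genes rose in both steps and 375 fell in both. Of the 387, 279 did not differ from day 0 on day 3 past 0.05, 95 were still above it, and 13 were below it. Of the 267, 166 did not differ from day 0, 63 were still below it, and 38 were above it. Without isolation 1, 2, or 3 the number turned around was 378, 506, and 369, and it was 629 without the day 1 library of isolation 2.

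Antioxidant genes under NRF2, the transcription factor that responds to oxidants and electrophiles, held members of this kind. Of 26, 18 rose between days 0 and 1, and 21 fell and 1 rose between days 1 and 3 (median -1.28, or -1.30, -1.16, and -1.32 in isolations 1, 2, and 3), beside a background of 10.7% that fell. Without isolation 1, 2, or 3, 18, 21, and 19 fell. A rise and then a fall, each past 0.05 and at least 2-fold, was found in 12 of them. Slc7a11, the cystine importer that feeds glutathione synthesis, was at 3.31, 4.15, and 3.24 CPM on day 0, 332, 268, and 367 CPM on day 1, and 44.4, 41.9, and 59.2 CPM on day 3 (log2 change -2.73, SE 0.20, adjusted p = 5.81e-07). Srxn1, or sulfiredoxin, which repairs overoxidized peroxiredoxins, was at 46.3, 34.3, and 39.2 CPM on day 0, 824, 661, and 896 CPM on day 1, and 224, 223, and 192 CPM on day 3 (log2 change -1.89, SE 0.14, adjusted p = 5.81e-07). In both, day 3 lay between day 0 and day 1 in every isolation. Prdx6, a peroxiredoxin that also acts on surfactant lipid, fell from 1881, 2050.1, and 2432 CPM on day 1 to 824, 753, and 921 CPM on day 3, to below its 1142, 1264, and 1397 CPM of day 0 (log2 change -1.35, SE 0.12, adjusted p = 1.63e-06). Gsta1, a glutathione S-transferase, went from at most 0.504 CPM on day 0 to 797, 1233, and 1389 on day 1 and 142, 110.3, and 172 on day 3. Its near-identical neighbor Gm3776 had no count on day 0 and was at least 7954-fold higher on day 1 than the 3 counts that a count of 0 allows over the day 0 libraries. It then fell from 446, 699, and 769 CPM on day 1 to 86, 76.9, and 101 CPM on day 3. The counting could have split reads between these 2 genes, so the level of each is uncertain.

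The letters TGANTCA, the AP-1 site that also lies within the antioxidant response element, stood in 5 of the 22 antioxidant genes with a window (22.7%), in 11.5% of the 208 windows of genes that rose and then fell, in 6.8% of those that fell and then rose, in 5.45% of those of the genes tested, and in 7.93% of all promoters. It was in none of the 23 G2 and mitosis windows. The windows of Srxn1, at chr2:152105274-152105573, plus strand, and of Prdx1, at chr4:116685349-116685648, plus strand, are printed with these letters in capitals because each holds them 2 times. Prdx1, a peroxiredoxin outside the naming rule that was chosen after its values were seen, fell from 2687, 3561, and 3748 CPM on day 1 to 1669.9, 1592, and 1492 CPM on day 3 (log2 change -1.06, adjusted p = 0.000646).
Srxn1: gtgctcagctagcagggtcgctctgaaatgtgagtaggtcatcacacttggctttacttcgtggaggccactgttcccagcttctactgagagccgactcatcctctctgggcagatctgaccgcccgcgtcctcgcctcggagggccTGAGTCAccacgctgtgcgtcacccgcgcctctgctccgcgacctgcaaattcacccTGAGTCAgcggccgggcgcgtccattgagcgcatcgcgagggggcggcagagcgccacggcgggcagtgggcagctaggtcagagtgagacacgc
Prdx1: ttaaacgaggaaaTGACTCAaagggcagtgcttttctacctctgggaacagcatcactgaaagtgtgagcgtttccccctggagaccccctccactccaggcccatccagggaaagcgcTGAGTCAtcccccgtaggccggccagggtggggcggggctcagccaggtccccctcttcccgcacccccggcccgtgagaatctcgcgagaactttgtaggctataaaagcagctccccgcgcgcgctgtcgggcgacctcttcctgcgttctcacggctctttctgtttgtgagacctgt
In Srxn1 the matches begin 102 and 45 bases before the start, and in Prdx1 237 and 131 bases before it.

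Targets of p53, which arrest the cell cycle or promote death after stress, also moved in both steps. Of 24, 20 rose by day 1, and 13 fell and 1 rose between days 1 and 3 (median -0.49), with 7, 10, and 6 fallen without isolation 1, 2, or 3. The rise and the fall were each past 0.05 and at least 2-fold in 5 of them. Cdkn1a, which encodes the CDK inhibitor p21, was at 54.8, 59.3, and 36.3 CPM on day 0, 1508, 999, and 1886 CPM on day 1, and 437, 619.5, and 478 CPM on day 3 (log2 change -1.53, SE 0.26, adjusted p = 0.000433). It stayed well above day 0 in every isolation. Gdf15, a stress cytokine, was at 6.19, 4.45, and 3.17 CPM on day 0, 92.7, 80.7, and 129.5 CPM on day 1, and 17.3, 14.8, and 15.5 CPM on day 3 (log2 change -2.68, SE 0.26, adjusted p = 3.88e-06). Sesn2, a sestrin that restrains mTORC1, was at 50.9, 52.6, and 39 CPM on day 0, 339, 130.5, and 366 CPM on day 1, and 40.1, 53.8, and 59.2 CPM on day 3 (log2 change -2.44, SE 0.40, adjusted p = 0.000442). Sesn2 on day 3 did not differ from day 0 past 0.05, and its day 1 level in isolation 2 was well below the other 2. Pmaip1, the proapoptotic gene for NOXA, was the one that rose (log2 change 1.40, SE 0.44, adjusted p = 0.0303), and it lost the call when any isolation was left out.

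Immediate early and AP-1 genes, which respond within minutes to growth factors and wounding, fell in 10 of 27 cases and rose in 2, with 4, 9, and 6 fallen without isolation 1, 2, or 3. Fosl1, the AP-1 subunit FRA1, was at 0.576, 0.202, and 0.155 CPM on day 0, 341, 196, and 388 CPM on day 1, and 46.3, 51.3, and 45.6 CPM on day 3 (log2 change -2.57, SE 0.36, adjusted p = 0.000116). Klf4, a factor of epithelial differentiation, was at 9.79, 5.67, and 4.79 CPM on day 0, 74, 13.2, and 83.7 CPM on day 1, and 2.26, 3.92, and 3.94 CPM on day 3 (log2 change -3.77, SE 0.62, adjusted p = 0.000453). Atf3, a stress-induced factor, was at 39.7, 16.2, and 9.04 CPM on day 0, 399, 102, and 311 CPM on day 1, and 73.8, 57.7, and 69.4 CPM on day 3 (log2 change -1.91, SE 0.46, adjusted p = 0.00712). In isolation 2 the day 1 levels of these 3 genes were the lowest of the group, and Atf3 lost its call without isolation 1 or 3. Myc, the growth factor-induced regulator of ribosome production, fell from 335, 238, and 246 to 151, 152, and 157 CPM, still over 10 times its 12, 10.9, and 10.7 CPM of day 0 (log2 change -0.82, SE 0.13, adjusted p = 0.000325). Junb, an AP-1 subunit, rose by log2 0.77 (adjusted p = 0.0304), a call lost without isolation 1 or 3 and without the replicate block. Hbegf, an EGF receptor ligand that such stimuli induce, fell from 443, 121, and 394 CPM on day 1 to 113, 111, and 102 CPM on day 3 (log2 change -1.49, SE 0.41, adjusted p = 0.0143), a call lost without isolation 1 or 3.

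Of 27 genes of the unfolded protein and integrated stress responses, 11 fell and 8 rose. Atf4, the main transcription factor of the integrated stress response, was at 130.5, 121, and 115 CPM on day 0, 444, 299.7, and 608 CPM on day 1, and 118, 159, and 135 CPM on day 3 (log2 change -1.71, SE 0.22, adjusted p = 4.24e-05). Psat1, an enzyme of serine synthesis, was at 7.41, 8.81, and 10.5 CPM on day 0, 194, 131, and 216 CPM on day 1, and 43.1, 58.2, and 42.6 CPM on day 3 (log2 change -1.87, SE 0.26, adjusted p = 9.48e-05). The 8 that rose were Calr, Pdia3, Pdia4, Pdia6, Dnajb11, Dnajc3, Edem1, and Xbp1. Calr, or calreticulin, a chaperone of the endoplasmic reticulum, rose from 680.0, 610.5, and 641 CPM on day 1 to 1119, 1162, and 966 CPM on day 3 (log2 change 0.75, SE 0.12, adjusted p = 0.000245). Pdia3, a disulfide isomerase, rose from 876, 719.9, and 909.9 CPM on day 1 to 1285, 1257, and 1268 CPM on day 3 (log2 change 0.61, SE 0.11, adjusted p = 0.000815). The number that rose was 5, 3, and 4 without isolation 1, 2, or 3. Heat shock chaperones gave 2 higher (11.8%) and 4 lower (23.5%) of 17, beside 13.8% and 10.7% of all genes tested. Without isolation 1, 2, or 3, 1, 4, and 4 of them were lower. Hspa1b, an inducible HSP70, fell from 501, 112, and 367 CPM on day 1 to 20.8, 25.9, and 33.1 CPM on day 3 (log2 change -3.52, SE 0.78, adjusted p = 0.00405), a call lost without isolation 1. Ribosome biogenesis genes, of which 27 of 28 rose by day 1, fell in 14 cases and rose in none (median -0.44), with 2, 6, and 7 fallen without isolation 1, 2, or 3. Nop58, a core protein of box C/D snoRNPs, was at 37.6, 40.7, and 41.9 CPM on day 0, 245, 228, and 276 CPM on day 1, and 112, 132, and 107 CPM on day 3 (log2 change -1.09, SE 0.13, adjusted p = 2.93e-05). Gnl3, or nucleostemin, was at 27.8, 25.2, and 27.3 CPM on day 0, 186, 129, and 177 CPM on day 1, and 88, 86.3, and 63.4 CPM on day 3 (log2 change -1.03, SE 0.15, adjusted p = 0.000147). Both remained above day 0. Among lysosome and autophagy genes, 9 rose and 6 fell of 27, or 4, 5, and 4 and 1, 6, and 2 without isolation 1, 2, or 3. Sqstm1, the autophagy receptor p62, was at 587, 590.0, and 614 CPM on day 0, 3898, 2658, and 2952 CPM on day 1, and 1130.3, 1137, and 1028 CPM on day 3 (log2 change -1.52, SE 0.17, adjusted p = 1.52e-05).

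**Figure D3:**
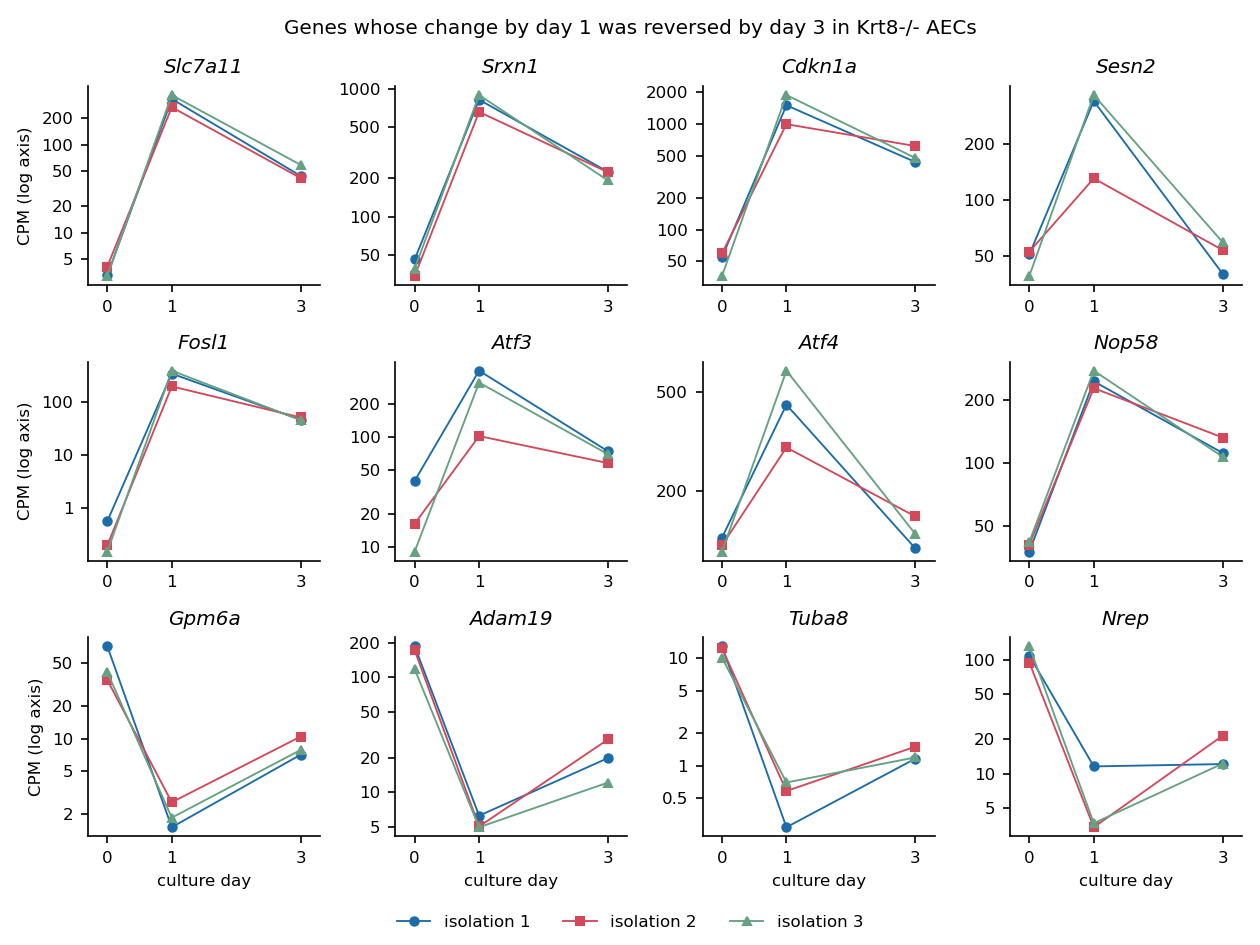
CPM (log axis) of 12 genes by culture day (days 0, 1, and 3) in Krt8-/- AECs, with 1 line per isolation. The upper 8 rose by day 1 and fell by day 3, as Slc7a11 did from 268 to 367 CPM on day 1 to 41.9 to 59.2 on day 3, and the lower 4 fell by day 1 and rose again by day 3.

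Other genes that rose the most by day 1 and then fell were Eid3, a paralog of a subunit of the SMC5/6 complex, and Il1f9, which encodes the cytokine IL-36γ. Neither had a count on day 0. Eid3 went from 16.4, 7.72, and 27.2 CPM on day 1 to 1.37, 0.241, and 0.493 CPM on day 3 (log2 change -4.63, SE 0.49, adjusted p = 1.91e-05), and Il1f9 from 12.7, 20.04, and 19.9 CPM on day 1 to 2.47, 1.63, and 2.32 CPM on day 3 (log2 change -3.02, SE 0.49, adjusted p = 0.000764). Set against the same floor, they were at least 202-fold and 219-fold higher on day 1. The genes that fell the most by day 1 and then rose were Scarf1, a scavenger receptor, Adam19, a membrane metalloprotease, Gpm6a, a membrane glycoprotein also found in AEC1s, Tuba8, an α tubulin, and Nrep, a small neuronal protein tied to TGF-β. Scarf1 was at 14, 12.3, and 12.6 CPM on day 0, 0.987, 0.259, and 0 CPM on day 1, and 4.46, 6.93, and 11.4 CPM on day 3 (log2 change 4.18, SE 0.76, adjusted p = 0.000854). Adam19 was at 186, 172, and 118 CPM on day 0, 6.28, 5.06, and 4.98 CPM on day 1, and 19.9, 28.9, and 12.2 CPM on day 3 (log2 change 1.93, SE 0.56, adjusted p = 0.0193). Gpm6a was at 71.5, 34.9, and 41.2 CPM on day 0, 1.52, 2.59, and 1.87 CPM on day 1, and 7.13, 10.5, and 7.89 CPM on day 3 (log2 change 2.07, SE 0.40, adjusted p = 0.00129). These 3 were below their day 0 level on day 3 in each isolation. Adam19 lost its call without isolation 1 or 2, Tuba8 without any one isolation, and Nrep without isolation 2 or 3.

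Lipid genes moved in both directions. Sterol synthesis genes fell in 12 of 21 cases and none rose, but 2 and 3 fell without isolation 1 or 3. Fdft1, or squalene synthase, fell from 219.8, 138, and 343 CPM on day 1 to 51.3, 58.3, and 54.6 CPM on day 3 (log2 change -2.06, SE 0.28, adjusted p = 7.88e-05). Insig1, the sterol sensor of the SREBP system, fell from 269, 78.8, and 227 CPM on day 1 to 47, 41.9, and 36.5 CPM on day 3 (log2 change -2.12, SE 0.39, adjusted p = 0.00109), a call lost without isolation 3. Fatty acid and phospholipid synthesis genes fell in 8 of 22 cases and none rose, with 3, 8, and 3 fallen without isolation 1, 2, or 3. Lpin1, a phosphatidate phosphatase, fell from 77.3, 45.8, and 109 CPM on day 1 to 6.99, 5.72, and 12.1 CPM on day 3 (log2 change -3.22, SE 0.39, adjusted p = 3.64e-05). Acss2, which makes acetyl-CoA from acetate, fell from 40.9, 22.6, and 29.1 CPM on day 1 to 6.58, 7.53, and 3.31 CPM on day 3 (log2 change -2.43, SE 0.26, adjusted p = 1.02e-05). Of 20 fatty acid oxidation and peroxisome genes, 9 rose and 2 fell, none of the risers by 2-fold, with 3, 5, and 3 risen without isolation 1, 2, or 3. Decr1, a mitochondrial dienoyl-CoA reductase, rose from 21.3, 22.5, and 17.9 CPM on day 1 to 35.4, 43.6, and 36.8 CPM on day 3 (log2 change 0.91, SE 0.16, adjusted p = 0.000569). Glycolysis and hypoxia genes gave 6 higher (23.1%) and 3 lower (11.5%) of 26, beside 13.8% and 10.7% of all genes tested, so the share that fell was near the background. Without isolation 1, 2, or 3, 2, 5, and 4 of them were higher. Respiratory chain subunits gave 3 higher and 0 lower of 28, below the background of 13.8% that rose.

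Clock genes fell in 10 of 19 cases and 1 rose, with 4, 9, and 5 fallen without isolation 1, 2, or 3. Nr1d1, the repressor REV-ERBα, was at 239, 207, and 152 CPM on day 0, 136, 72.6, and 109.9 CPM on day 1, and 33, 28.6, and 39 CPM on day 3 (log2 change -1.64, SE 0.30, adjusted p = 0.000801). Bhlhe40, a repressor that also responds to hypoxia, rose from 251, 319.8, and 219 CPM on day 1 to 509, 463, and 507 CPM on day 3 (log2 change 0.94, SE 0.19, adjusted p = 0.00169). The hour of harvest was not given in the sources used here. Xenobiotic metabolism divided as well, with 10 lower and 3 higher of 20 (4, 7, and 4 lower without isolation 1, 2, or 3). Ces1d, a carboxylesterase, fell from 455, 76.6, and 305 CPM on day 1 to 4.46, 8.68, and 7.11 CPM on day 3 (log2 change -5.23, SE 0.65, adjusted p = 4.32e-05). Cyp2f2, the cytochrome of club cells, fell from 286, 66.9, and 167 CPM on day 1 to 5.42, 17.7, and 4.15 CPM on day 3 (log2 change -4.34, SE 0.64, adjusted p = 0.000173). Cyp1b1, a target of the aryl hydrocarbon receptor, rose from 128, 243, and 156 CPM on day 1 to 511, 1097, and 566 CPM on day 3 (log2 change 2.03, SE 0.32, adjusted p = 0.00025). Cyp1a1, the best-known target of that receptor, went from 1.52, 8.04, and 11.2 CPM on day 1 to 14.6, 246, and 21.9 CPM on day 3 (log2 change 3.07, SE 0.85, adjusted p = 0.0183), with isolation 2 more than 10 times the others on day 3, and lost its call without isolation 1 or 2.

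Of 18 ion and fluid transport genes, 4 rose (22.2%) and 2 fell (11.1%), beside 13.8% and 10.7% of all genes tested, so the share that fell was near the background. Without isolation 2, 6 fell, and 5 fell in DESeq2 and 4 without the replicate block. Scnn1a, Scnn1b, and Scnn1g, subunits of the epithelial sodium channel, rose. Scnn1a went from 89.6, 122, and 136 CPM on day 1 to 246, 289, and 295 CPM on day 3 (log2 change 1.26, SE 0.18, adjusted p = 0.000106). Scnn1g went from 8.25, 25.1, and 19.5 CPM on day 1 to 81.2, 118, and 123 CPM on day 3 (log2 change 2.66, SE 0.32, adjusted p = 2.78e-05). Cftr, the cystic fibrosis chloride channel, fell from 65.7, 24.2, and 36.9 CPM on day 1 to 6.72, 7.29, and 7.75 CPM on day 3, after 262, 288, and 209 on day 0 (log2 change -2.50, SE 0.46, adjusted p = 0.000983). Ano1, a calcium-activated chloride channel, rose from 339, 309, and 255 CPM on day 1 to 828, 763, and 897 CPM on day 3, after 112, 116, and 83 on day 0 (log2 change 1.49, SE 0.18, adjusted p = 3.43e-05).

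Chemokine genes fell in 6 of 17 cases and rose in 2, with a median of -0.94 in the fit. By isolation, on CPM with 0.5 added on both days, the medians were -0.68, -0.67, and 0.19, which is not the measure of the fit. In the fit the median was -0.13 without isolation 2 and -0.01 without its day 1 library, with 6 genes fallen in each. Cxcl1, a neutrophil chemokine, fell from 96.3, 32.9, and 30.1 CPM on day 1 to 2.74, 2.65, and 1.48 CPM on day 3 (log2 change -4.43, SE 0.46, adjusted p = 7.36e-06). Cxcl2, its relative, fell from 28.8, 8.04, and 8.33 CPM on day 1 to 0.274, 0.482, and 0.141 CPM on day 3 (log2 change -5.34, SE 0.64, adjusted p = 2.82e-05). Ccl2, the monocyte chemokine MCP-1, had 3 counts in all on day 0, rose to 35.3, 41.8, and 26.9 CPM by day 1, and was at 40.4, 16.6, and 20.4 CPM on day 3 (adjusted p = 0.447), so the days overlapped. Ccl20, which attracts cells through CCR6, rose from 0.448, 1.36, and 4.2 CPM on day 1 to 6.58, 8.2, and 5.35 CPM on day 3 (log2 change 1.91, SE 0.65, adjusted p = 0.0427), a call lost without isolation 1 or 2 and without the replicate block. Of 23 cytokine genes and receptors, 5 fell and 1 rose, with 1, 4, and 3 fallen without isolation 1, 2, or 3. Il33, an alarmin that AEC2s store in the nucleus, was at 1004, 1053, and 872 CPM on day 0, 138, 9.34, and 50.1 CPM on day 1, and 3.43, 4.7, and 3.52 CPM on day 3 (log2 change -3.80, SE 0.83, adjusted p = 0.00373), a call lost without isolation 1 or 3. Csf1, the macrophage growth factor, was at 44.8, 29.4, and 26.6 CPM on day 0, 239.7, 202, and 177 CPM on day 1, and 714, 617, and 394 CPM on day 3 (log2 change 1.49, SE 0.39, adjusted p = 0.0112), a call lost without isolation 1 or 2. NF-κB genes gave 5 higher (29.4%) and 2 lower (11.8%) of 17, beside 13.8% and 10.7% of all genes tested. Without isolation 1, 2, or 3, 2, 4, and 1 of them were higher and 0, 1, and 0 lower. Tnfaip3, the feedback enzyme A20, rose from 55.8, 53, and 44.9 CPM on day 1 to 177, 184, and 172 CPM on day 3 (log2 change 1.81, SE 0.24, adjusted p = 5.31e-05). Of 24 interferon-stimulated genes, 4 rose and none fell, close to the background.

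In other signaling pathways, genes of the Wnt pathway rose in 10 and fell in 2 of 28 cases, and those of the BMP and activin pathways in 10 and 4 of 22. Without isolation 1, 2, or 3, 7, 6, and 6 Wnt genes rose and 1, 4, and 3 BMP genes fell. Wnt10a, a ligand with no count on day 0, rose from 0.269, 1.36, and 1.17 CPM on day 1 to 14.6, 8.01, and 14.6 CPM on day 3 (log2 change 3.69, SE 0.53, adjusted p = 0.000313). Fzd2, a Wnt receptor, rose from 4.04, 9.01, and 7.16 CPM on day 1 to 19.7, 30.5, and 20.3 CPM on day 3 (log2 change 1.81, SE 0.24, adjusted p = 5.29e-05), while the ligand Wnt4 fell from 17.8, 10.6, and 14.9 CPM on day 1 to 6.65, 7.29, and 4.58 CPM on day 3, a call lost without isolation 1 or 3. Bmp4, a ligand high in fresh AEC2s, fell from 46.5, 36.1, and 45.7 CPM on day 1 to 13.2, 14.8, and 22.7 CPM on day 3, after 219.8, 157, and 164 on day 0 (log2 change -1.34, SE 0.26, adjusted p = 0.0014), a call lost without isolation 1. Bmp1, a protease that matures procollagen, was at 119, 106, and 75.6 CPM on day 0, 34, 28.7, and 29.1 CPM on day 1, and 131, 137, and 142 CPM on day 3 (log2 change 2.17, SE 0.19, adjusted p = 1.63e-06). Fst, which binds activin, rose from 8.34, 6.16, and 3.04 CPM on day 1 to 25.7, 28.9, and 21.5 CPM on day 3 (log2 change 2.17, SE 0.27, adjusted p = 3.7e-05). Notch genes gave 3 higher and 1 lower of 15, EGF receptor ligands and receptors 2 and 2 of 12, FGF genes 3 and 2 of 16, and tight junction genes 3 and 0 of 16. Each of these 4 lists had at most 5 calls. Their shares were 16.7% to 20% risen and 0% to 16.7% fallen, beside 13.8% and 10.7% of all genes tested. Without isolation 1, 2, or 3 the number that rose was 0, 1, and 1 for Notch, 2, 1, and 0 for EGF receptor, and 1, 1, and 3 for FGF genes.

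Some genes moved between near 0 and clearly counted. From under 0.5 CPM on day 1 to at least 5 CPM on day 3, 18 genes came on, and 43 went off by the same measure, of which 18 and 42 passed the test between days. Cntn2, which encodes the neuronal adhesion molecule contactin 2, had no count in any Krt8-/- library on day 0 or day 1 and 124, 313, and 110 counts on day 3, so that day 3 was at least 158-fold higher than the floor of 3 counts for the 3 day 1 libraries. Cck, which encodes the gut hormone cholecystokinin, had 1, 5, and 10 counts on day 1 and 279, 780, and 64 on day 3 (log2 change 5.93, SE 1.22, adjusted p = 0.00431). It varied more than 10-fold between isolations on day 3 and lost its call without isolation 1. Prl2c2, a placental prolactin relative also called proliferin, went from 0, 0.648, and 0.701 CPM on day 1 to 15.3, 40.5, and 16.5 CPM on day 3 (log2 change 5.69, SE 1.08, adjusted p = 0.00264). Near-identical copies of this gene exist, so its reads could have been split among them. Ncam1, a neural adhesion molecule, rose from 0.807, 1.36, and 1.71 CPM on day 1 to 46.5, 71, and 52.3 CPM on day 3 (log2 change 5.43, SE 0.41, adjusted p = 6.52e-07). The kinesins Kif18b and Kif4, and Pimreg and Ttk, all genes of mitosis, were also among the largest rises or the genes that came on. Kif18b went from 0.179, 0.519, and 0 CPM on day 1 to 15.8, 12.4, and 9.37 CPM on day 3 (log2 change 5.62, SE 0.79, adjusted p = 0.000106). Ttk, a kinase of the spindle checkpoint, rose from 0.179, 0.973, and 0.234 CPM on day 1 to 13.7, 11.8, and 7.46 CPM on day 3 (log2 change 4.50, SE 0.73, adjusted p = 0.000322). Myct1, a nuclear protein, summed to 1 count over the day 1 libraries and to 247 over those of day 3, a ratio of 215 (95% interval 38.2 to 8512, counting error only).

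Among the largest falls, C7 and C6 encode terminal components of complement. C7 had 159, 96, and 77 counts on day 1 and none on day 3, which is at least 127-fold lower against the floor of 3 counts. C6 fell from 167, 16.3, and 97.9 CPM on day 1 to 0, 0.181, and 0.141 CPM on day 3 (log2 change -9.36, SE 1.22, adjusted p = 0.000111). Elovl2, an elongase of polyunsaturated fatty acids, had 82, 5, and 127 counts on day 1 and none on day 3, at least 82.1-fold lower, and lost its call without isolation 1 or 3. Dio3, which inactivates thyroid hormone, had 857 counts on day 1 and 3 on day 3, a ratio of 329 (95% interval 112 to 1597). Pou3f1, a POU-domain factor, went from 355 to 1 count and Slc10a4, a carrier of the bile acid transporter family, from 199 to 1. Dio3, Pou3f1, and Slc10a4 were near 0 on day 0, so their high level was seen on day 1 alone of these days. Lrg1, a leucine-rich glycoprotein, and Pla2g1b, a secreted phospholipase, went off after high levels on day 0. Lrg1 was at 489.6, 356, and 301 CPM on day 0, 70.2, 6.03, and 29.4 CPM on day 1, and 0.206, 0.181, and 0 CPM on day 3 (log2 change -7.71, SE 0.93, adjusted p = 3.64e-05), and Pla2g1b at 99.2, 105, and 137 CPM on day 0, 31, 10.2, and 33.6 CPM on day 1, and 0.206, 0.241, and 0.352 CPM on day 3 (log2 change -6.42, SE 0.53, adjusted p = 8.85e-07). Retnla, a secreted resistin-like protein, was over 10 times higher in isolation 2 than in the others on days 0 and 1, at 27.6, 375, and 26.7 and 10.3, 133, and 9.5 CPM, and was at 0.206, 0.844, and 0 CPM on day 3 (log2 change -7.09, SE 0.41, adjusted p = 6.52e-07).

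Markers of other cells were followed over the same libraries. The 14 macrophage markers tested had no call in either direction, and their summed level was 173, 154, and 32.7 CPM on day 1 and 136, 72.2, and 22.4 on day 3. Cd68, a macrophage sialomucin, was at 49.2, 38.8, and 9.5 CPM on day 1 and 36.9, 19.8, and 8.31 CPM on day 3. Isolation 3 held the least of them on both days. Mesothelial markers rose in 3 of 5 cases, from 244, 502, and 333 CPM to 1363, 1232, and 1385 CPM in sum, most of it Msln, which went from 215, 437, and 288 CPM on day 1 to 1225, 1043, and 1265 CPM on day 3 (log2 change 1.96, SE 0.44, adjusted p = 0.00424). Lrrn4, a membrane protein, rose from 11.5, 24.1, and 14.6 CPM on day 1 to 49.9, 63.6, and 46.8 CPM on day 3 (log2 change 1.71, SE 0.40, adjusted p = 0.00587), and Upk1b, a uroplakin, rose from 12.6, 37.8, and 24.8 CPM on day 1 to 81.9, 118, and 67.4 CPM on day 3 (log2 change 1.87, SE 0.41, adjusted p = 0.00358). The mesothelial factor Wt1, at 1.61, 2.27, and 2.18 CPM on day 1 and 3.56, 4.76, and 2.04 CPM on day 3, and Upk3b, at 3.32, 0.908, and 3.04 CPM on day 1 and 1.85, 2.95, and 2.96 CPM on day 3, did not pass the test. Smooth muscle and pericyte markers gave 2 higher and 1 lower of 5 tested and summed to at most 65.7 CPM. Des went from 2.33, 7.33, and 5.14 CPM on day 1 to 27.9, 40.2, and 5.56 CPM on day 3 (log2 change 2.37, adjusted p = 0.0165). Cspg4 went from 1.61, 1.95, and 0.545 CPM to 11.2, 13.7, and 11.8 CPM (log2 change 3.11, adjusted p = 0.0160). Notch3 fell (log2 change -1.41, adjusted p = 0.0338), and Myh11 and Lmod1 did not pass the test. Club cell markers fell in 5 of 6 cases, from 8361, 11562, and 7455 to 878, 1157, and 916 CPM, most of it Scgb1a1, and ciliated markers in 5 of 8. Of the ciliated markers, 1, 3, and 3 fell without isolation 1, 2, or 3, and 2 without the replicate block. Endothelial markers gave 1 higher and 1 lower of 7, or 14.3% each, beside 13.8% and 10.7% of all genes tested. Their sums were 15.1, 16.8, and 11.8 CPM on day 3. Lymphocyte markers gave 0 and 3 of 6 (1, 1, and 2 lower without isolation 1, 2, or 3), with sums of 2.88, 1.75, and 1.62 CPM on day 3. The endothelial marker Emcn, the macrophage marker Cd5l, and the T cell marker Cd8a were at 0 in all 6 libraries, and Cldn5 was at 0 on day 3. Of the 12 marker sums, those of fibroblast, mesothelial, smooth muscle, and epithelial markers were higher on day 3 in every library than on day 1, and those of club, ciliated, and lymphocyte markers lower (exact permutation test, two-sided, p = 0.1 for each, the smallest that 3 against 3 libraries allow, and 0.171 with Benjamini-Hochberg adjustment over the 12). The fibroblast sum was higher through Col1a1, Col1a2, and Col3a1 and was lower on day 3 in each isolation without them. What these cells add to the changes above was not tested.

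**Figure D4:**
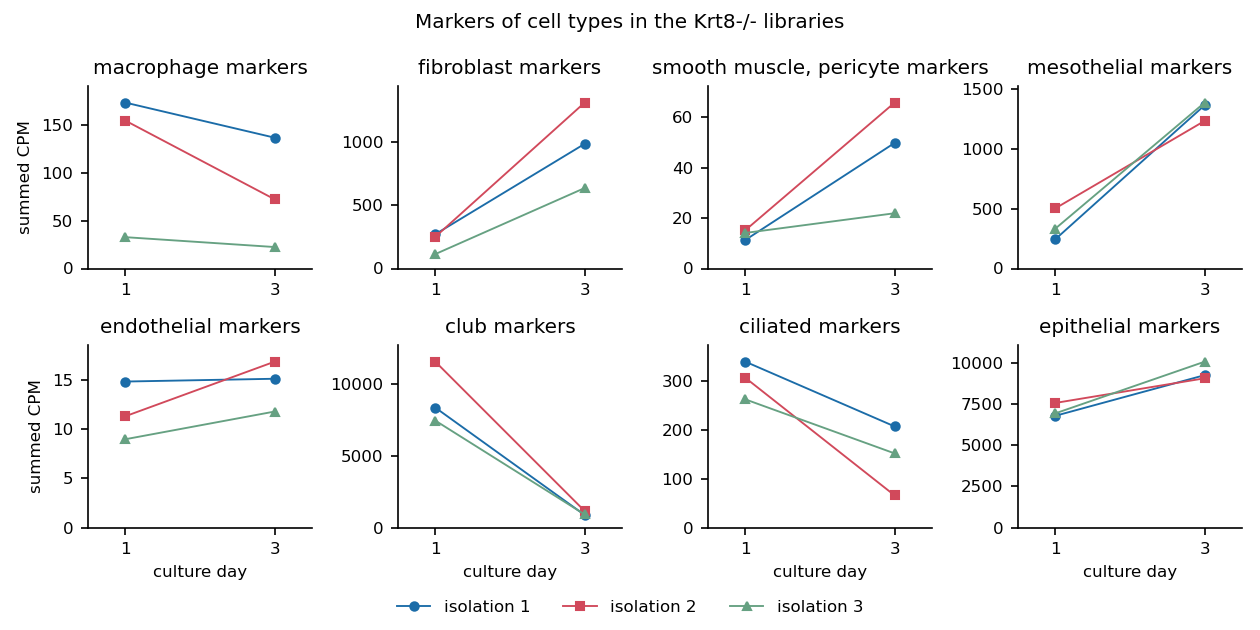
Summed CPM of the markers of 8 cell types on culture days 1 and 3 in Krt8-/- AECs, with 1 line per isolation and each axis from 0. Fibroblast sums, through Col1a1, Col1a2, and Col3a1, and mesothelial sums were higher and club sums lower on day 3 in every isolation; without these collagens the fibroblast sum was lower in each, and macrophage sums were lower on day 3 than on day 1 in every isolation.

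The change from day 1 to day 3 was then set against that of Krt8+/+ AECs, to ask whether it depended on the gene. In the Krt8+/+ libraries, 2645 genes rose (14.7%) and 2179 fell (12.1%). The difference between the genotypes' changes passed an adjusted p of 0.05 in 0 of 18046 genes, or 0% (edgeR, with 302 genes at an unadjusted p below 0.05; DESeq2 also gave 0, with 344). The test had limited reach, since the difference between 2 changes carries more error than either. In simulated counts for the day 3 against day 1 comparison, edgeR recovered 34.1% of 2-fold and 63.6% of 4-fold changes. Only 91 and 107 tested genes were changed there, so the adjustment was stricter than with many changes. The shares are thus not those of the day 3 against day 1 comparison in the data. The difference between genotypes was not simulated, so they give no rate for it. Medians of lists are given for both genotypes with no test, such as -4.20 and -4.23 for surfactant and lamellar body genes, 1.16 and 1.22 for actomyosin genes, and -1.28 and -1.23 for antioxidant genes. For G2 and mitosis genes they were 3.56 without Krt8 and 4.50 with it, with all 28 genes risen in both.

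**Figure D5:**
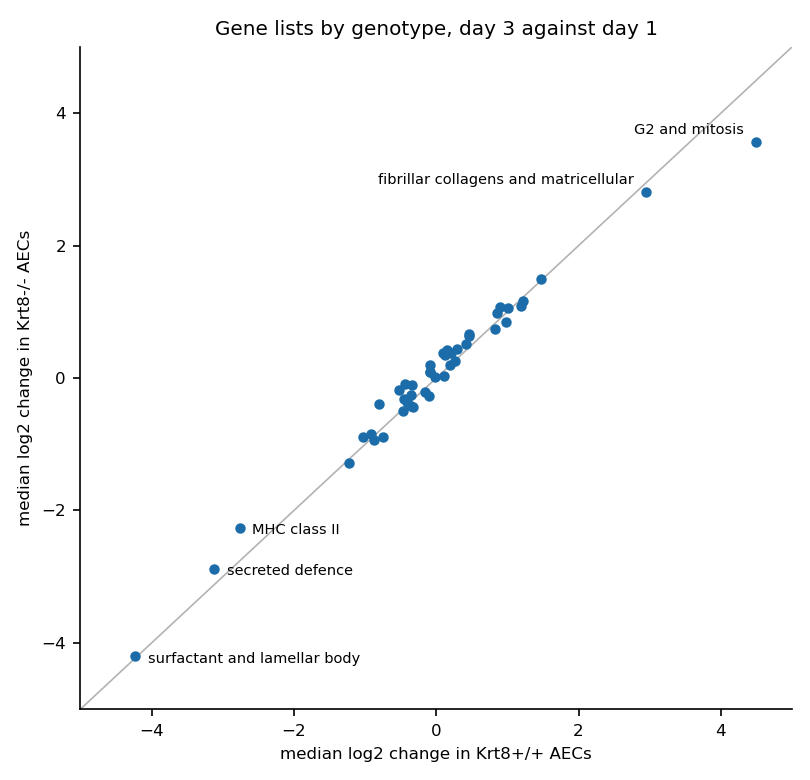
Median log2 change from day 1 to day 3 of the gene lists in Krt8+/+ AECs (horizontal axis) and Krt8-/- AECs (vertical axis), with 1 point per list and the line of equal change. AEC1 markers are shown and other cell type markers left out. G2 and mitosis genes lie below it, at 4.50 and 3.56.

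The genes with the smallest p for the genotype difference are given as values, since none passed the threshold. Cntn2 had no reads on day 1 and was at 8.5, 18.9, and 7.75 CPM on day 3 in Krt8-/- AECs, and at 0.0734, 0.251, and 0.204 CPM on day 1 and 3.67, 8.04, and 4.88 CPM on day 3 in Krt8+/+ AECs. It was thus higher on day 3 without Krt8 in every isolation, with an unadjusted p of 0.000112 for the difference of changes. Pyy, which encodes the gut hormone peptide YY, was at 0.179, 0.13, and 0 CPM on day 1 and 5.83, 10.6, and 3.38 CPM on day 3 in Krt8-/- AECs and 0.294, 0.418, and 1.15 CPM on day 1 and 1.9, 2.01, and 3.18 CPM on day 3 in Krt8+/+ AECs. Bpifa1, a secreted airway defense protein, fell from 172, 214, and 356 CPM on day 1 to 2.6, 9.82, and 26.3 CPM on day 3 without Krt8 and was at 23, 8.86, and 1.09 CPM on day 1 and 1.57, 6.03, and 2.61 CPM on day 3 with it, so that the genotypes stood apart on day 1. Taf9, a subunit of the general transcription factor TFIID, was at 4.75, 3.89, and 5.53 CPM on day 1 and 5.62, 7.59, and 4.86 CPM on day 3 without Krt8 and 8.01, 8.78, and 7.54 CPM on day 1 and 2.16, 4.08, and 2.38 CPM on day 3 with it. Nacc1, a transcriptional regulator, was at 38.8, 47.7, and 44 CPM on day 1 and 40.3, 57.3, and 43 CPM on day 3 without Krt8 and at 31.2, 28.1, and 28.9 CPM on day 1 and 43.7, 53.9, and 47.7 CPM on day 3 with it. The adjusted p was 1 for each of these 5 genes.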

How the data were processed

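Total RNA of AECs was sequenced by the study in 24 libraries, and a table of read counts per gene was deposited by the authors. Per the submitters' processing notes, the tools were cutadapt 2.3, STAR 2.7.8a, and RSEM 1.3.3, with the build GRCm38. The counts were whole numbers and may be rounded RSEM estimates, in which reads of near-identical genes are divided by a model. The annotation and the use of strand were not given in the sources used here, so overlapping antisense genes could not be told apart. Of 55426 entries, 5 reporter rows held no counts, and 55240 of the other 55421 identifiers were given symbols and positions from GENCODE annotation of GRCm38. Entries without a symbol took at most 0.0122% of a library. Totals ran from 10184439 to 19483386 reads.

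Counts were fitted in edgeR 4.0.16 under R 4.3.3 with robust quasi-likelihood dispersion, TMM scaling, and filterByExpr by group (minimum count 10). All 24 libraries entered, with a block for each of the 6 preparations (genotype and isolation date) and the day within genotype, which left 12 residual degrees of freedom. The adjusted p is that of edgeR over the 18046 genes tested unless another tool is named, with the threshold at 0.05. SE is the size of the log2 change divided by the square root of the F statistic. It thus follows from the test and is not estimated on its own, and it is least certain for genes near 0 on a day. The block follows the labels, which tie each batch date to 1 biological replicate. Deviations from the group means correlated between days at 0.227, 0.116, and 0.283 within isolations and at -0.222 to -0.00986 across them. No 2 libraries of a group agreed within sampling noise (chi-square per gene 11.8 to 89.3). P-values rest on the spread left after the block, which is how far the changes between days vary among isolations, pooled over both genotypes and all days. Differences in level between isolations are removed by the block. DESeq2 1.42.0 was run as an alternative. In simulated counts with changes of known size, edgeR recovered 31 of 91 changes of 2-fold and 68 of 107 of 4-fold, with 4 calls of unchanged genes. These were the only tested changes among 17777 genes, which makes the adjustment stricter than with many changes. The counts were drawn from a fit without the block and tested with it.

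Members, gene lists, and tests were chosen with earlier results of these data known. Genes were named by rule: the 10 largest rises and falls, per list up to 3 that rose, 3 that fell, and 2 not called, the 5 largest of each kind that turned around, the 5 of smallest p for the genotype difference, and the 5 highest switched on or off. Others are named as members of a list or as chosen after their values were seen. A gene was taken as turned around when both steps passed the threshold and 1 on the log2 scale. Folds against groups without a count use a floor of 3 counts over the group, and intervals (95%, exact binomial) and floors cover counting error only. Medians by isolation use the log2 ratio of CPM on day 3 to CPM on day 1, each with 0.5 added. Those of the fit do not use these ratios, so the 2 kinds of median can differ, most in genes of low level. Nor are the changes of the fit plain ratios of CPM near 0. They stay finite where a day has no count, as for Cd3e, at 0 CPM in each day 3 library (log2 change -5.33). Marker sums were compared by exact permutation of the day 1 and day 3 libraries, without the pairing by isolation. Promoter letters were searched in RefSeq windows of GRCm38.p6, matched by symbol for 11696 tested genes. Motif shares carry no test.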

Additional observations from a re-analysis of the deposited data

How the results depend on the processing

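Leaving out 1 isolation at a time gave 1261 to 1448 genes higher on day 3 in Krt8-/- AECs, against 2490 with all of them, 575 to 1415 lower, against 1932, and 369 to 506 turned around, against 654. Of the genes called with all isolations, 40.0%, 58.5%, and 43.1% were still called without isolation 1, 2, or 3, and none in the opposite direction; these fits have fewer samples. Without the Krt8-/- day 1 library of isolation 2 alone, an alternative chosen after seeing the data, 1927 genes were higher, 1881 lower, and 629 turned around. With no minimum size of change, 1735 genes turned around. Without the replicate block, 2419 genes were higher, 1827 lower, and 622 turned around, and among the named genes Ctsh, Ccl20, Mmp3, and Junb lost their call. The count of genes whose change differed between genotypes was 0 under each alternative run. DESeq2, its size factors, library totals, no filter on low counts, a filter at 5 CPM, a block shared by the genotypes, and a fit of only the libraries compared gave 2026 to 2758 genes higher and 1398 to 2448 lower. In the fit of only the libraries compared, Etv5, Ccl20, Il33, Klf4, Hbegf, Tuba8, Nrep, Cyp1a1, Ces1d, and Cyp2f2 lost their call, and the cause was not tested; 9 surfactant genes fell there, against 17, and 9 EMT, 7 keratin and desmosome, 5 EGF receptor, and 5 FGF genes rose, against 3, 3, 2, and 3. No named gene changed direction while called. Medians of 6 and 5 lists changed sign without isolation 1 or 3. In simulated counts with few genes changed, changes of 2-fold were missed more often than not, and that rate does not carry over to the data.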
